A study of Mus musculus with 6 samples.

Results

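The subunits of the visual G protein transducin and of its effector enzyme, cyclic GMP phosphodiesterase 6 (PDE6), were examined in the pineal gland of newborn mice. The set held 10 genes, out of 18193 genes with a probe set that the platform annotation gives to that gene alone. They were listed by name and not by a cut on their values, but with earlier results of these data known. It had 5 cone-type genes (Gnat2, Gnb3, Gngt2, Pde6c and Pde6h) and 5 rod-type genes (Gnat1, Gnb1, Gngt1, Pde6b and Pde6g), measured by 17 of the 45037 probe sets. The probe set with the highest mean over the arrays stood for each gene. Of the 10 genes, 9 passed a filter that left out the dimmest 40% of probe sets, and Gnat1 did not.

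Homozygous Neurod1 knockout mice were compared with wildtype mice, both of strain 129. Neurod1 is a transcription factor of the basic helix-loop-helix class. Tissue of both genotypes was taken by day at postnatal day 0 from mice on a cycle of 12 h light and 12 h dark. Each genotype had 3 pools, each pool held 3 glands and each was hybridised to 1 Affymetrix array after a round of RNA amplification, so a value is an average over animals. The extent of the Neurod1 deletion is not described in the labels. All values are the authors' linear probe set signals, and differences are knockout minus wildtype on the scale log2(signal + 38.6), which understates changes of dim genes.

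In retinal photoreceptors, light-activated opsin makes the transducin alpha subunit exchange GDP for GTP and leave its beta and gamma partners. The alpha subunit then relieves the small inhibitory gamma subunits from the catalytic PDE6 core, cyclic GMP falls, and cyclic nucleotide-gated channels close. Rods and cones build this cascade from paralogous genes for most subunits. The mammalian pinealocyte, the melatonin-making cell of the gland, shares an origin and many transcripts with photoreceptors, although the adult mammalian gland receives its light information through the eyes.

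Sequence windows from the RefSeq promoter table are shown for 3 members, Gnat2 because its groups were separated, Gngt1 because its knockout pools varied most among the members with a window, and Pde6h because it holds the most E-boxes of those windows. RefSeq windows (GRCm38.p6) were matched for 5 of 10 members, Gnat2, Gngt1, Pde6h, Pde6b and Gnb1. Each line gives the 250 bases before the start that this table uses, on the plus strand, 5′ to 3′, for Gnat2 at chr3:108092816-108093065, for Gngt1 at chr6:3993758-3994007 and for Pde6h at chr6:136954273-136954522. The whole RefSeq span of each of these genes begins further upstream, so the windows end 6277 bases (Gnat2), 4925 bases (Gngt1) and 2304 bases (Pde6h) inside it and do not precede the outermost annotated start. Capitals mark TAATCC or its reverse complement GGATTA, the core recognised by the photoreceptor and pineal homeodomain factors Crx and Otx2, and the E-box CANNTG, the general recognition sequence of basic helix-loop-helix factors, on either strand.
Gnat2: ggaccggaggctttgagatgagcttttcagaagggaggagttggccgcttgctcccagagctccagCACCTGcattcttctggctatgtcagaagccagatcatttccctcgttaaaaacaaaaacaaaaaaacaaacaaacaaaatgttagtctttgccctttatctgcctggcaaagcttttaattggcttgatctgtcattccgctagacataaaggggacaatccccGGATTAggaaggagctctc
Gngt1: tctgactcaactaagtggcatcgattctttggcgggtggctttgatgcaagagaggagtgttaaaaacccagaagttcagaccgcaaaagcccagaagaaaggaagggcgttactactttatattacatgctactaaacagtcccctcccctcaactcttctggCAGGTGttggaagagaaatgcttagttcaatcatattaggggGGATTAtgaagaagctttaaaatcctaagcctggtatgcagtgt
Pde6h: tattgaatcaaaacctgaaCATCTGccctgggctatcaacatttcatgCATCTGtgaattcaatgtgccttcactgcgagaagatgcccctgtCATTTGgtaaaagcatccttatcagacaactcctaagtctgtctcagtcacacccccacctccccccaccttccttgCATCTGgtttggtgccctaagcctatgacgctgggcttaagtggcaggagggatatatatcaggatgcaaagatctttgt

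GGATTA was found in the Gnat2 and Gngt1 windows, with its first base 19 and 44 bases before the start used by the table, and in none of the other 3 windows. The core occurs on either strand in 6.25% of 32851 windows of this length. An E-box of any kind is common, in 66.2% of windows. The form CAGATG or its reverse complement CATCTG, a subset of the E-boxes, is in 14.4% of windows and occurred 3 times in that of Pde6h. These matches are letters in a window and were not tied to binding of any factor.

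Arrays differed in the signals of other genes, and the part of these differences in the members' values was not tested. Ribosomal protein genes stood 1.19 above the mean of the 6 arrays in knockout pool 1 (median log2 value over 38 genes), and between −0.54 and 0.04 in the other 5 pools. The choroid plexus gene Ttr had a signal of 685 in knockout pool 3 and 898 in wildtype pool 1, against 38903 to 87464 elsewhere. The spermatid gene Prm1 had 3856 in knockout pool 2 and 720 in wildtype pool 2, against 68.2 to 272 elsewhere. Signals of Tph1, the tryptophan hydroxylase gene that marks pinealocytes, lay between 2755 and 12501 in knockout and between 6295.5 and 15095 in wildtype pools. The targeted gene followed the labels, with a Neurod1 signal of 346 ± 204 in knockout and 8616 ± 959 in wildtype pools (SD, n = 3 each).

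Between the genotypes, no member passed the threshold of limma (adjusted p under 0.05), and the cone alpha subunit gene Gnat2 was the member whose knockout pools all lay below all wildtype pools. Over all 12797 genes tested, 0.00781% were called lower, which is Neurod1, and 0% were called higher. The members' limma adjusted p was 0.998 for each of the 9 tested. Groups that do not overlap with knockout lower were found for 1 of 9 tested members and for 4.33% of all genes, and with knockout higher for 0 of 9 and 5.77%. An unadjusted limma p under 0.05 was found for 1 of 9 members, Gnat2, and for 3.34% of all genes. By direction, that was 1 of 9 members lower in knockout, beside 1.37% of all genes, and 0 of 9 higher, beside 1.98%. With the pool number as a block, the unadjusted limma p was 0.0059 for Gnat2, 0.023 for Gnb3 and 0.021 for Pde6c. In that fit it was under 0.05 for 798 of 12797 genes, and the limma adjusted p of these members was 0.768 each.

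By direction of the mean log2 value, 4 of 5 cone-type members and 2 of 4 tested rod-type members were lower in knockout, beside 46.8% of all genes. Here each gene was read by 1 probe set, and the probe sets of Gnb1 and of Gngt1 differ in direction. With the mean of probe sets, 4 cone-type members and 1 rod-type member were lower. The median log2 difference was −0.70 over the cone-type members and −0.11 over the tested rod-type members, against 0.03 over all genes tested. These medians hide unequal pools: within pool numbers 1, 2 and 3, which the labels tie to a shared date, the cone-type median was −0.26, −0.85 and −0.38 and the rod-type median 0.64, −0.57 and −0.21. The rod-type median was thus positive within number 1 and negative within numbers 2 and 3, but the genes differed. Within number 1, Pde6b was lower in knockout and the other tested rod-type genes were higher. Within numbers 2 and 3, Gngt1 and Pde6g were lower and Gnb1 and Pde6b were not, so the tested rod-type genes shared no direction.

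**Figure D1:**
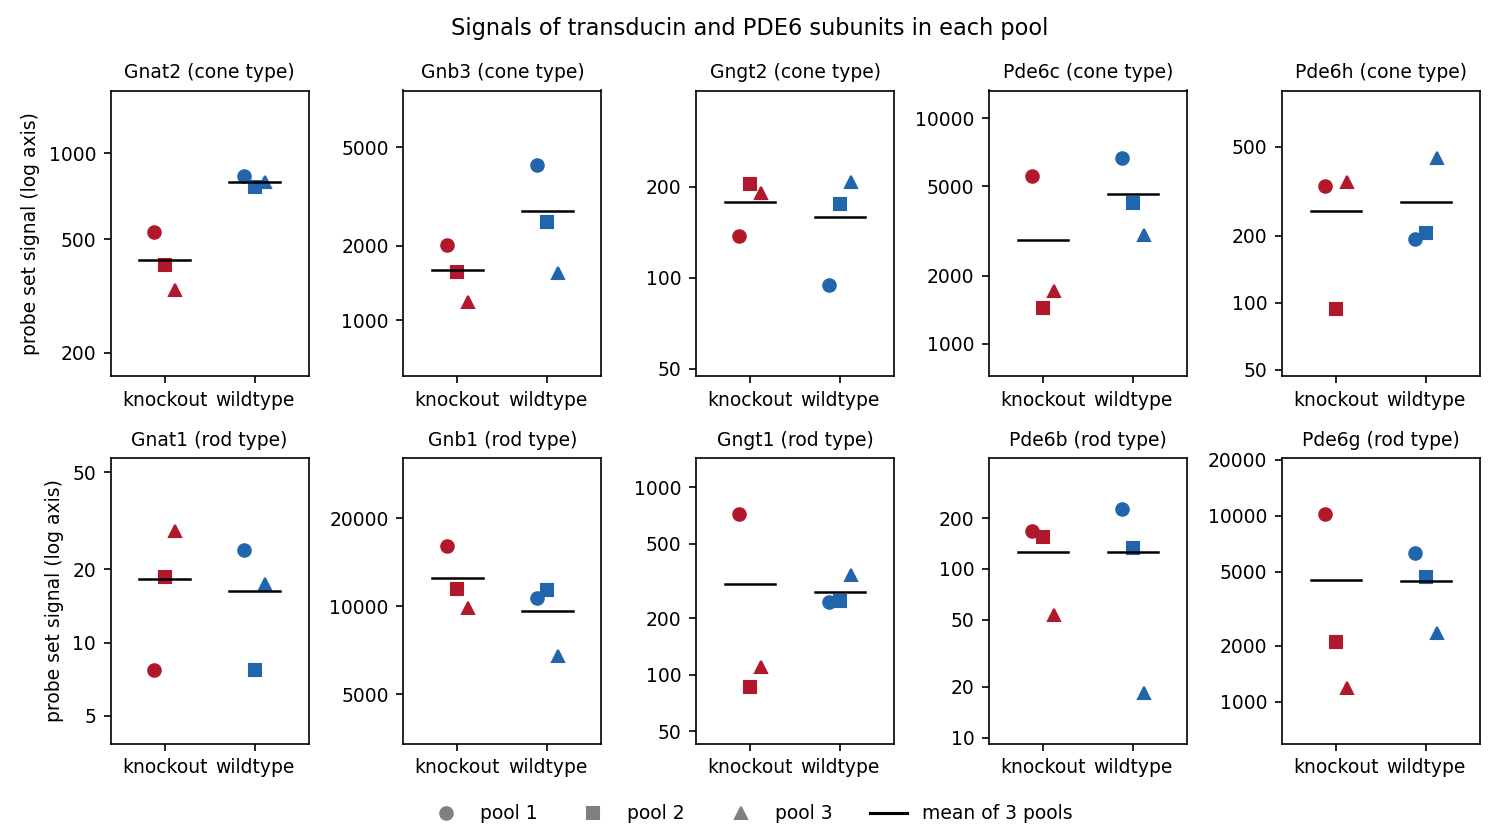
Probe set signal (log axis) of the 5 cone-type genes, top, and 5 rod-type genes, bottom, with knockout pools in red on the left and wildtype pools in blue on the right of each panel; symbols mark the pool number and lines the mean of 3 pools. Only the Gnat2 panel separates the groups, at 331 to 529 in knockout and 762.5 to 829 in wildtype pools.

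Gnat2 encodes the transducin alpha subunit of cones, the subunit that binds GTP and switches on PDE6. Its signal was 528.8, 406.3 and 331.2 in knockout pools 1, 2 and 3, against 829.1, 762.5 and 793.4 in wildtype pools 1, 2 and 3. The wildtype pools lay within a 1.09-fold range, the narrowest of the 10 members, and every knockout pool was below them. The mean was 422 ± 99.7 in knockout and 795 ± 33.3 in wildtype (SD, n = 3 each), a ratio of 0.531, and the log2 difference was −0.88 (SE 0.26). Its unadjusted limma p of 0.00845 ranked 55 of 12797 genes, and after adjustment over all genes it was 0.998. Within numbers 1, 2 and 3 the difference was −0.61, −0.85 and −1.17, so it was negative in each.

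Markers of several cell types differed in summed signal between the same pools. In this bulk tissue, fewer cells of a type and less RNA per cell cannot be told apart. The summed signal of 8 pinealocyte markers was 20280 to 34510 in knockout and 30080 to 44520 in wildtype pools, and 7 of its 8 members had lower means in knockout. These sums overlapped between the genotypes through knockout pool 1. The summed signal of 10 macrophage markers was 9427 to 13020 in knockout and 6293 to 7509 in wildtype pools, and that of 8 meningeal fibroblast markers 105700 to 127600 in knockout and 82820 to 89200 in wildtype pools. All 9 tested macrophage markers and all 8 fibroblast markers had higher means in knockout, and no marker of these 3 lists was at 0 in any pool. The defining markers were Tph1 and Aanat for pinealocytes, Cd68 and Csf1r for macrophages, and Col1a1 and Col1a2 for fibroblasts. The part of these shifts in the Gnat2 difference was not tested.

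Gnat1, the rod transducin alpha subunit gene, was at the bottom of the signal range. It had signals of 7.7, 18.6 and 28.6 in knockout pools 1, 2 and 3, against 23.9, 7.7 and 17.4 in wildtype pools 1, 2 and 3. Every array placed this probe set under its own 20th percentile, which ran from 28.4 to 45.6, so the values have no readable order and the gene was not tested. Of the alpha subunit pair, the cone gene was read above the filter and the rod gene was not.

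The beta subunits gave signals in every pool, and their groups overlapped. Gnb1 encodes the transducin beta subunit of rods and is also a beta subunit of many other heterotrimeric G proteins in most cells. Its probe set of highest mean had 16064, 11436 and 9864 in knockout pools 1, 2 and 3, against 10699, 11393 and 6771 in wildtype pools 1, 2 and 3. Knockout pool 1 was highest and wildtype pool 3 lowest, with a log2 difference of 0.38 (SE 0.34). A further Gnb1 probe set above the filter, 1417432_a_at, had 1187 ± 59.3 in knockout and 1591 ± 634 in wildtype pools (SD, n = 3 each) and a log2 difference of −0.34. The probe sets of Gnb1 therefore differ in direction, and no direction is given for the gene. Its remaining probe set was dim, at 10.5 to 130.5 in knockout and 4.3 to 89.3 in wildtype pools.

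Gnb3, the cone beta subunit gene, had 2020, 1575 and 1189.5 in knockout pools 1, 2 and 3, against 4249, 2507 and 1554 in wildtype pools 1, 2 and 3. Each knockout pool was below the wildtype pool of its number, but knockout pools 1 and 2 were above wildtype pool 3. The mean was 1595 ± 415 in knockout and 2770.1 ± 1366 in wildtype pools (SD, n = 3 each), and the log2 difference was −0.70 (SE 0.41). It was −0.33 without wildtype pool 1 and −1.05 without wildtype pool 3, so its size rests on which wildtype pools are used.

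The transducin gamma subunits, small prenylated proteins that hold the beta subunit at the membrane, did not separate the genotypes. Gngt1, the rod form, had 715.7, 85.7 and 110.3 in knockout pools 1, 2 and 3, against 244.2, 248.4 and 340.2 in wildtype pools 1, 2 and 3. Knockout pool 1, in which ribosomal protein genes stood high, was above all wildtype pools, and the other knockout pools were below all of them. A link between the ribosomal level and Gngt1 was not tested. The log2 difference was −0.38 (SE 0.61), changed to −1.20 when knockout pool 1 was left out and turned to 0.10 when knockout pool 2 was. The other Gngt1 probe sets also put knockout pool 1 highest, at 578 for 1425219_x_at, 361 for 1425167_a_at and 217.5 for the dim 1425168_at, with log2 differences of 0.40, 0.02 and 0.83. The suffix x marks probes that can bind other sequences.

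Gngt2, the cone form, had 137.3, 204.6 and 191 in knockout pools 1, 2 and 3, against 94.5, 175.5 and 207.9 in wildtype pools 1, 2 and 3. The ranges overlapped, with wildtype pool 1 lowest. The log2 difference was 0.16 (SE 0.35) and turned to −0.10 without wildtype pool 1.

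The catalytic PDE6 subunits hydrolyse cyclic GMP. Of those in the set, the cone gene Pde6c had a lower mean log2 value in knockout and the rod gene Pde6b did not. The rod alpha catalytic subunit gene, Pde6a, was not in the set, so the rod catalytic core was read from Pde6b alone. Pde6c encodes the catalytic subunit of cones, which pairs with itself. Its signal was 5519.5, 1437 and 1718 in knockout pools 1, 2 and 3, against 6637, 4219 and 3049.8 in wildtype pools 1, 2 and 3. Knockout pools 2 and 3 were below every wildtype pool, while knockout pool 1 was above wildtype pools 2 and 3. The mean was 2891.5 ± 2280.2 in knockout and 4635 ± 1829.7 in wildtype pools (SD, n = 3 each). The log2 difference was −0.87 (SE 0.53), with −0.26, −1.53 and −0.81 within numbers 1, 2 and 3, and leaving out knockout pool 1 gave −1.47, leaving out knockout pool 2 gave −0.51.

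Pde6b encodes the beta catalytic subunit of rods. Its signal was 168, 155 and 53.4 in knockout pools 1, 2 and 3, against 227.3, 132.3 and 18.4 in wildtype pools 1, 2 and 3. In both genotypes pool 3 was the lowest, and wildtype pool 3 was under its array's 20th percentile. The log2 difference was 0.17 (SE 0.60), and was −0.47 without wildtype pool 3, 0.65 without wildtype pool 1 and −0.04 without knockout pool 1, so it had no stable direction.

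The inhibitory PDE6 gamma subunits block the catalytic sites until the transducin alpha subunit removes them. Pde6g, the rod form, had 10226.5, 2095.5 and 1193 in knockout pools 1, 2 and 3, against 6301, 4691 and 2343 in wildtype pools 1, 2 and 3. Knockout pool 1 was the highest of all pools and knockout pools 2 and 3 the lowest, as for Gngt1. The second Pde6g probe set gave the same order of pools except that knockout pool 2 was above wildtype pool 3, with 6409, 1441 and 875 in knockout pools 1, 2 and 3, against 4869.6, 3971 and 1406 in wildtype pools 1, 2 and 3. The log2 difference was −0.47 (SE 0.72) for the first and −0.57 for the second, and for the first it came to −1.36 with knockout pool 1 left out and 0.17 with knockout pool 3 left out.

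Pde6h, the cone form, had 333, 93.7 and 346.9 in knockout pools 1, 2 and 3, against 194.1, 205.6 and 447.5 in wildtype pools 1, 2 and 3. Knockout pool 2 was the lowest and wildtype pool 3 the highest, with the rest between them. The log2 difference was −0.18 (SE 0.48) and turned to 0.32 without knockout pool 2 and to 0.16 without wildtype pool 3. The other Pde6h probe set was dim, at 70.9 to 85.5 in knockout and 22.7 to 87.7 in wildtype pools.

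**Figure D2:**
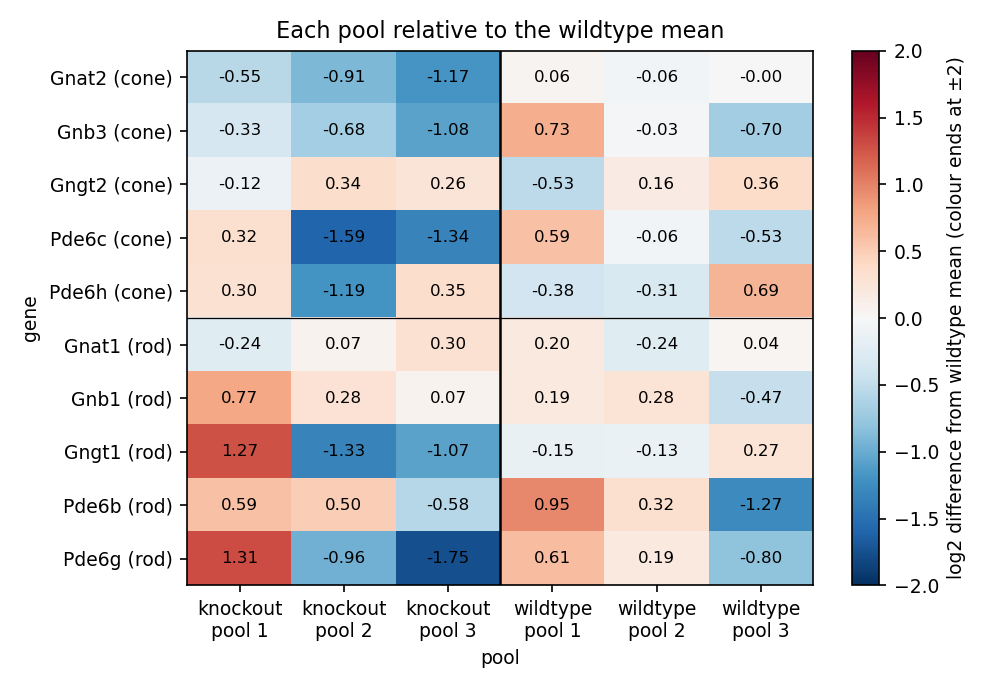
Log2 value of each member in each pool minus that gene's mean over the 3 wildtype pools, with knockout pools in the left 3 columns, wildtype pools in the right 3, cone-type genes above and rod-type genes below. Gnat2 is the member with all knockout pools clearly below a flat wildtype row, while Gngt1 and Pde6g are above 1 in knockout pool 1 and below −0.9 in knockout pools 2 and 3.

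**Figure D3:**
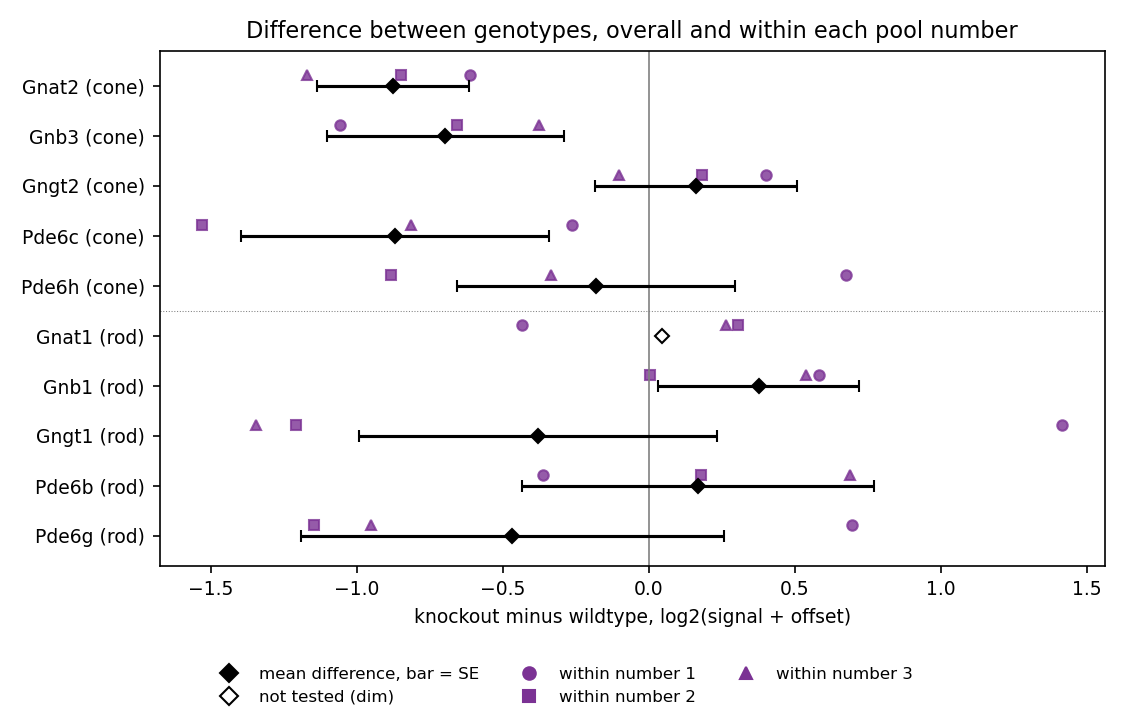
Knockout minus wildtype difference on the log2(signal + 38.6) scale for the 10 members, with the SE of the limma fit as bars and the difference within each pool number as symbols. Gnat2 and Gnb3, and Pde6c with a wider bar, lie below 0 in all pool numbers, and the other members have pool numbers on both sides of 0, except Gnb1, which lies at or above 0.

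Within wildtype, the members formed different patterns over the pools, read within each gene because probe sets of different genes bind with different strength and their signals set no order of levels between genes. Gnb3, Pde6c, Pde6b and Pde6g were each highest in wildtype pool 1 and lowest in wildtype pool 3, with a highest over lowest signal of 2.73, 2.18, 12.4 and 2.69. Of the 8 pinealocyte markers, 5 were in the same order over wildtype pools 1, 2 and 3, 2 in the opposite order (Aanat and Otx2) and 1 in neither, so the markers share no single order. Gngt1, Gngt2 and Pde6h were lowest in wildtype pool 1 and highest in wildtype pool 3, with a highest over lowest signal of 1.39, 2.2 and 2.31. The 20th percentile of the array was also lowest in wildtype pool 1, at 28.4, and highest in wildtype pool 3, at 45.6, and its part in the dim members was not tested. The patterns did not follow the division into rod and cone types, since each held genes of both.

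The balance of a cone gene against its rod paralog was then read within each array, as the difference of their log2 values, and compared between genotypes. In this way a factor that scales a whole array largely drops out. Of 5 pairs, the groups were separated for the alpha and the beta pair, with the balance lower in knockout, and overlapped for the other 3. The share of separated groups among other gene pairs was not computed, so this count is a description only. The separation depends on the processing: the alpha pair overlapped with an offset at the 5th percentile (exact permutation p = 0.3), an offset of 16 (p = 0.2) and quantile normalization (p = 0.2), and the beta pair with the mean of probe sets (p = 0.2). An exact two-sided permutation test over the 20 ways to split the 6 arrays cannot go below p = 0.1, so no pair could pass 0.05.

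For the beta pair, Gnb3 minus Gnb1 was −2.97, −2.83 and −3.01 in knockout pools 1, 2 and 3, against −1.32, −2.17 and −2.10 in wildtype pools 1, 2 and 3. The knockout pools lay close together and below all wildtype pools. Gnb1 is a subunit in most cells, and the summed macrophage and fibroblast markers were higher in the same knockout pools. The part of the cell mix in this balance was not tested. The mean balance was −2.94 ± 0.09 in knockout and −1.86 ± 0.47 in wildtype pools (SD, n = 3 each), a difference of −1.07 (exact permutation p = 0.1, adjusted over the 5 pairs 0.25). With the other Gnb1 probe set above the filter, an alternative chosen after seeing the data, the difference was −0.36 (exact permutation p = 0.3), so the size depends on which Gnb1 probe set is read.

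For the alpha pair, Gnat2 minus Gnat1 averaged 3.01 ± 0.58 in knockout and 3.93 ± 0.16 in wildtype pools (SD, n = 3 each), a difference of −0.92 (exact permutation p = 0.1, adjusted 0.25). As Gnat1 was at the bottom of the range in all pools, this difference mainly restates that of Gnat2. For the catalytic pair, Pde6c minus Pde6b averaged 3.98 ± 0.94 in knockout and 5.02 ± 0.64 in wildtype pools, a difference of −1.04 (exact permutation p = 0.3, adjusted 0.5). Within number 1 it was 0.10, and within numbers 2 and 3 −1.71 and −1.50.

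The pairs of small subunits differed less in their means than in their pools. Gngt2 minus Gngt1 was −2.10, 0.97 and 0.62 in knockout pools 1, 2 and 3, against −1.09, −0.42 and −0.62 in wildtype pools 1, 2 and 3. Knockout pool 1 was below all wildtype pools and the other knockout pools above all of them, with a difference of 0.54 (exact permutation p = 0.6, adjusted 0.7). Pde6h minus Pde6g averaged −3.49 ± 1.62 in knockout and −3.78 ± 1.31 in wildtype pools (SD, n = 3 each), a difference of 0.29 (exact permutation p = 0.7, adjusted 0.7). Pool 3 had the highest balance of Pde6h over Pde6g in both genotypes, at −1.68 in knockout and −2.29 in wildtype.

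**Figure D4:**
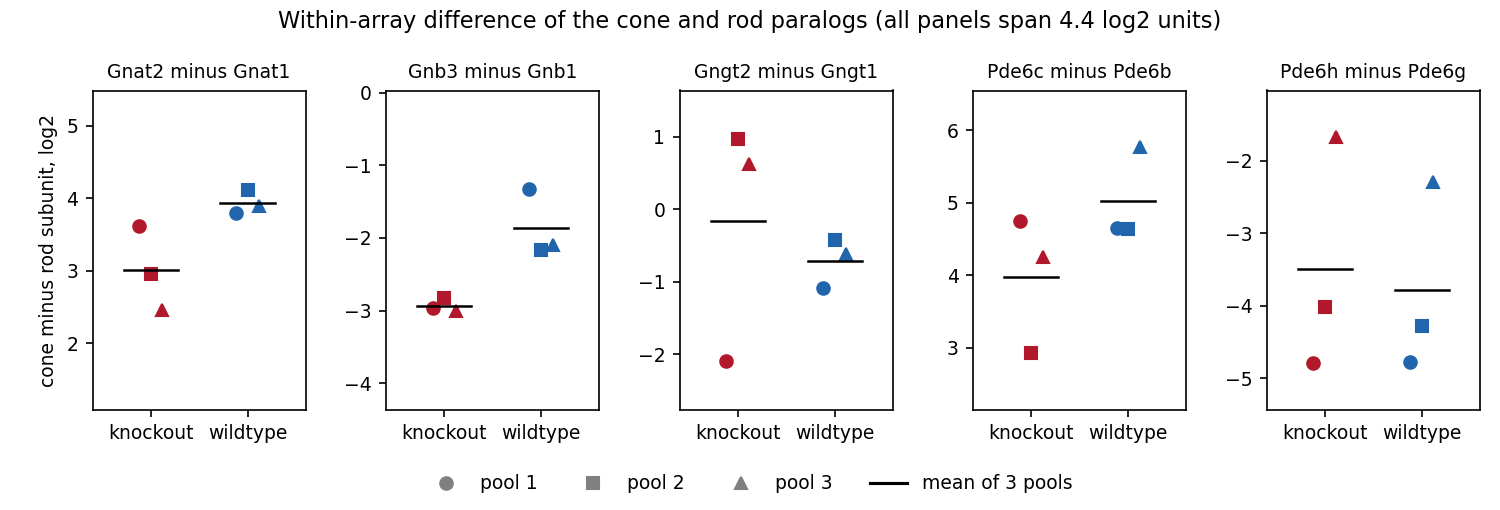
Within-array log2 difference of the cone paralog minus the rod paralog for the 5 subunit pairs, with knockout pools in red on the left and wildtype pools in blue on the right; symbols mark the pool number, lines the mean, and every panel spans the same range. The knockout points lie below all wildtype points for Gnat2 minus Gnat1 and for Gnb3 minus Gnb1.

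Other genes of the cascade were read from lists of the opsins, channels, shut-off proteins and related families. Of 21 further phototransduction genes, 11 were tested, and 6 had lower and 5 higher means in knockout, with a median log2 difference of −0.20 against 0.03 over all genes. Their smallest unadjusted p belonged to Gnb5 and Cngb1. Gnb5, the beta subunit that works with the regulator of G protein signalling that ends the transducin signal, had 529, 591 and 597 in knockout pools 1, 2 and 3, against 1058, 859 and 774 in wildtype pools 1, 2 and 3. The groups did not overlap, with an unadjusted limma p of 0.0408 and an adjusted p of 0.998. Cngb1, a subunit gene of the rod cyclic nucleotide-gated channel, had 247 ± 102 in knockout and 138 ± 26.1 in wildtype pools (SD, n = 3 each), with overlap.

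Genes that fold, lipidate or carry transducin and PDE6 had 17 lower and 8 higher means among 25 tested, with a median of −0.22 and no call. Pde6d, which encodes a carrier of prenylated proteins, had 334, 348 and 284 in knockout pools 1, 2 and 3, against 756, 615 and 336 in wildtype pools 1, 2 and 3. Its groups overlapped through wildtype pool 3. Rp2, which encodes an activator of the GTPase that releases cargo from such carriers, had 584, 994 and 943 in knockout pools 1, 2 and 3, against 1096, 1348 and 1433 in wildtype pools 1, 2 and 3, without overlap. The unadjusted limma p was 0.0593 for Pde6d and 0.0684 for Rp2, and the adjusted p 0.998 for both.

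Related families and the transcription factors of these cells were read in the same way. Other heterotrimeric G protein subunits had 10 lower and 10 higher means among 20 tested (median −0.01), led by Gng4, with 625 ± 275 in knockout and 890.1 ± 197 in wildtype, and Gna11, with 925 ± 85.7 in knockout and 694 ± 106 in wildtype pools (SD, n = 3 each). Other cyclic nucleotide phosphodiesterases had 4 lower and 11 higher means among 15 tested (median 0.26). Pde1c had 768 ± 185 in knockout and 1121 ± 132 in wildtype, and Pde2a 1413 ± 227 in knockout and 1024 ± 443 in wildtype pools (SD, n = 3 each). Among 11 tested transcription factors of photoreceptors and the pineal gland, 7 had lower and 4 higher means (median −0.35), with Rxrg and Pax6 giving the smallest p. Rxrg, a retinoid X receptor, had 385.5, 158.5 and 174.5 in knockout pools 1, 2 and 3, against 753.8, 454.3 and 315.7 in wildtype pools 1, 2 and 3, and Pax6, a homeobox factor, had 900.2, 633 and 1100.9 in knockout against 1643, 1183 and 1163 in wildtype pools 1, 2 and 3. No gene of these lists passed the threshold, and the limma adjusted p was 0.998 for each gene named.

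The tested genes outside the set whose log2 values ran most like those of Gnat2 over the 6 arrays were Nek4, Rnf11 and Mrpl50, with Pearson correlations of 0.985, 0.983 and 0.980. Nek4 had 168, 120 and 107.5 in knockout pools 1, 2 and 3, against 253, 268 and 237 in wildtype pools 1, 2 and 3. For Gnat1, whose values are under the filter, they were Helb, Patl1 and Sgms1, at 0.989, 0.974 and 0.969. These are the highest of 12788 correlations over 6 arrays that share pools and array scale, and are given as a description.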

How the data were processed

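The deposited table holds the authors' probe set signals, a linear fluorescence intensity for 45037 probe sets on 6 arrays; GCOS is named, without a version, in the submitters' processing notes. The signal algorithm was not given in the sources used here. The deposited arrays have 2% trimmed means of 499.5 to 499.96, so their intensities had been scaled to 500 by the authors. Values were used as log2(signal + 38.6), the offset being the 20th percentile of all values. The platform annotation gave 1 gene to 34945 probe sets, several to 932 and none to 9160. Probe sets in the lowest 40% by mean log2 value (signal under 105) were left out, and the brightest remaining probe set stood for a gene, leaving 12797 genes.

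The genotypes were compared in limma 3.58.1 (R 4.3.3) by lmFit, then eBayes with trend, leaving 4 residual degrees of freedom. The test was two-sided, with Benjamini-Hochberg adjustment over all genes and a threshold of 0.05. The call was also run on simulated data with independent noise and changes larger than any member's difference. That run did not cover changes of the members' size or effects shared by same-numbered pools. The median SE was 0.34 (log2), which together with 3 arrays a group limits precision. The paralog balance used an exact permutation test. The series design text calls the pools separate biological samplings. Same-numbered pools share a labelled date, and their deviations from the group means correlated by 0.32, 0.25 and 0.36, so the pool number was a block in an alternative fit. Members, lists and tests were chosen with earlier results of these data known. All 10 members, Neurod1, the 2 genes of smallest p of each list and the 3 genes most like Gnat1 and Gnat2 are named by rule. First markers of the cell types are also named by rule, except that none is named for red blood cells and brain neurons. Otx2, Rbpms, Crisp2 and Tnp1 were named after their values were seen. Alternatives changed the offset, normalization, filter, probe sets, variance model, block and pools used.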

Additional observations from a re-analysis of the deposited data

How the results depend on the processing

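Neurod1 was the gene called lower, and 0 genes were called with an offset at the 5th percentile or of 16, or without both pools numbered 1 or both numbered 2; leaving out 1 pool gave 0 to 1 lower calls. With limma's array weights, which gave 6.20 to knockout pool 2, 7.05 to wildtype pool 2 and at most 0.541 to the others and whose estimation stopped before convergence, 1420 genes were called lower and 1512 higher, among them 6 members as lower (Gnat2 adjusted p = 0.00366, Pde6c 0.00365, Gngt1 0.00952, Pde6g 0.0143, Gnb3 0.0220 and Pde6h 0.0456). Knockout pool 2 is the pool with the most spermatid transcripts. In no other alternative was a member called. With the replicate number as a block the calls were 1 lower and 0 higher, the SE of Gnat2 was 0.23 and its adjusted p 0.768, and no call changed.

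Gnat2, Gnb3 and Pde6c kept their sign in all 19 alternatives. Gnb1 also did, but fell to 0.02 with the mean of probe sets. None of these alternatives read its probe set 1417432_a_at alone, which gave −0.34, so no direction is given for Gnb1. The differences of Gnat2 lay between −1.04 and −0.73. Signs turned for the untested Gnat1 (0.045) to −0.040 with quantile normalization, −0.095 with median scaling and −0.085 without both pools numbered 2, with −0.083 to 0.19 when 1 pool was left out; for Gngt1 to 0.013 with the mean of probe sets and 0.034 without both pools numbered 2 (−1.20 to 0.10 with 1 pool left out); and for Pde6h to 0.17 without both pools numbered 2 (−0.45 to 0.32). With 1 pool left out, Pde6b lay between −0.47 and 0.65, Gngt2 between −0.10 and 0.34, and Pde6g between −1.36 and 0.17. Median scaling moved the median of all genes to −0.11, against 0.03, and Gnat2 to −1.02.

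The balance of Gngt2 to Gngt1 turned to −0.055 with the mean of probe sets and to −0.24 with Gngt1 probe set 1425219_x_at, an alternative chosen after seeing the data (−0.028 to 1.51 with 1 pool left out), and that of Pde6h to Pde6g lay between −0.62 and 1.03 with 1 pool left out. The balances of Gnat2, Gnb3 and Pde6c to their rod paralogs stayed negative throughout, but the groups of the Gnat2 pair overlapped under 3 of these alternatives and those of the Gnb3 pair under the mean of probe sets and with Gnb1 probe set 1417432_a_at. Causes of these changes were not tested. Gnat1 and Pde6b are limited by signals near the bottom of the range.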

Other observations

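Summed signals of the remaining marker lists are given as values. For 5 measured genes of retina cells other than photoreceptors the sum was 1580 to 2524 in knockout and 889 to 1124 in wildtype pools, without overlap. The separation comes from Rbpms, with 743, 1104.8 and 2066.8 in knockout pools 1, 2 and 3, against 294.5, 664.1 and 495.3 in wildtype pools 1, 2 and 3; without it the other 4 genes summed to 458 to 837 in knockout and 459 to 598 in wildtype pools. Vsx1, a bipolar cell gene, had 79.9, 132.5 and 61.9 in knockout pools 1, 2 and 3, against 53.8, 54.2 and 12.4 in wildtype pools 1, 2 and 3. The 8 measured choroid plexus genes summed to 3018 to 95190 in knockout and 3352 to 75480 in wildtype pools, and 8 spermatid genes to 398 to 29270 in knockout and 314.5 to 4159 in wildtype pools. The largest spermatid signals were those of Crisp2 (17677 in knockout pool 2, against 1700.1 in wildtype pool 2) and of Tnp1 (4433 in knockout pool 2, against 913 in wildtype pool 2). The 3 measured red blood cell genes summed to 550.1 to 1128 in knockout and 854 to 1250 in wildtype pools. The 8 brain neuron genes summed to 34940 to 39640 in knockout and 36740 to 46760 in wildtype pools.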
